A study of Rattus norvegicus with 6 samples.

Results

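The nuclear genes for the subunits of oxidative phosphorylation were followed in 6 RNA-seq libraries of injured rat spinal cord. Members were the rows of the deposited gene table whose gene name began with Nduf (letters a, b, c, s or v and a digit), Sdha to Sdhd, Uqcr, Cox4 to Cox8 with a letter, or Atp5. This rule found 57 of the 33455 rows, 34 of complex I, 4 of complex II, 2 of complex IV and 17 of complex V. No row of complex III matched, because that table carries the complex III genes and all but 2 complex IV genes under locus numbers. A further 31 rows, whose product description and matched protein name such a subunit, were therefore read beside the members. Of these, 1 belongs to complex I, 8 to complex III, 19 to complex IV and 3 to complex V. The labels name the Norway rat, but 0 of the 33455 gene numbers in that table occur in RefSeq's annotation of the Norway rat build GRCr8, while 15093 gene names do. The counting annotation is therefore not that one, and gene lengths, locus-numbered rows and splits between copies rest on it.

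Rats of the wild type genotype received a contusion at the thoracic segment T9 and were treated with a piezoelectric gel and ultrasound (Piezo Gel+US, n = 3 libraries) or with a gel and ultrasound (Gel+US, n = 3 libraries). Both groups share the injury and the ultrasound, which was given at 100 Hz and 1.0 W/cm2 for 10 min a day over 4 weeks. Tissue of about 5 mm3 was taken from the lesion centre. Strain, sex and age are not given in the sources used here, and neither uninjured cord nor injured cord without gel or ultrasound was analysed here. The labels call the libraries biological replicates. The comparison asks what differs in the lesion when the gel is piezoelectric.

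Oxidative phosphorylation is the process by which mitochondria make most of the ATP of neurons and glia. Complex I (NADH dehydrogenase) and complex II (succinate dehydrogenase) pass electrons to ubiquinone, complex III passes them to cytochrome c, and complex IV (cytochrome c oxidase) passes them to oxygen. Complexes I, III and IV pump protons, and complex V (ATP synthase) uses the proton gradient to make ATP. Most subunits come from nuclear genes, and a small number, at the membrane core of each pump and of ATP synthase, come from mitochondrial DNA.

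Library totals ran from 17212653 to 21436820 counts. The members took 0.427% to 0.538% of counts in the Piezo Gel+US libraries and 0.478% to 0.621% in the Gel+US libraries. The 13 protein genes of mitochondrial DNA had only 0 to 7 counts in total per library, so the mitochondrial subunits could not be compared. All 21 neuron markers and all 12 oligodendrocyte markers looked for were detected, as in spinal cord tissue. Piezo Gel+US replicate 2 stood apart in its summed Schwann cell markers, given further on. In tissue of mixed cells, fewer cells of a type and less RNA per cell cannot be told apart.

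Of the 57 members, 56 passed the filter on low counts and were tested. The exception was the row of Ndufb1, an accessory subunit of complex I, with 0 to 4 counts per library. That row has 245 bases and no intron in the deposited table, so its counts may not give the level of the gene. None of the 56 passed an adjusted p of 0.05 in edgeR's quasi-likelihood test (background 0.0%, 0 of 17066 genes), and none had an unadjusted p below 0.05 (background 2.1%). The smallest p was 0.0549, for Ndufa13, and no adjusted p was below 0.994. In Piezo Gel+US, 27 members were higher and 29 were lower, with a median log2 fold change of -0.026 against -0.021 over all genes tested. The balance depended on single libraries. With replicate 1 of Piezo Gel+US left out, 20 were higher and 36 lower (median -0.092), and with replicate 2 of Gel+US left out, also 20 and 36 (median -0.075). With replicate 3 of Gel+US left out, 42 were higher and 14 lower (median 0.062). The fold changes spanned -0.51 (Ndufc1) to 0.35 (Ndufa13) on the log2 scale. For 52 of the 56 members (92.9%) the 95% interval of the fold change lay between 2-fold lower and 2-fold higher. The same held for 50.2% of all genes tested and for 68.0% of those with a mean above 10 CPM. CPM are counts scaled to a common library size. The 4 members with wider intervals were Ndufc1, Ndufs1, Ndufa4l2 and Atp5md. DESeq2 also called 0 genes, with 652 of the 23240 rows that had a count at an unadjusted p below 0.05. The 6 libraries varied less in the members, with a median SD of 0.201 on the log2 scale. It was 0.375 over all genes tested and 0.292 over those above 10 CPM. These sets, also used for the intervals, include the members and were not matched to them in level.

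**Figure D1:**
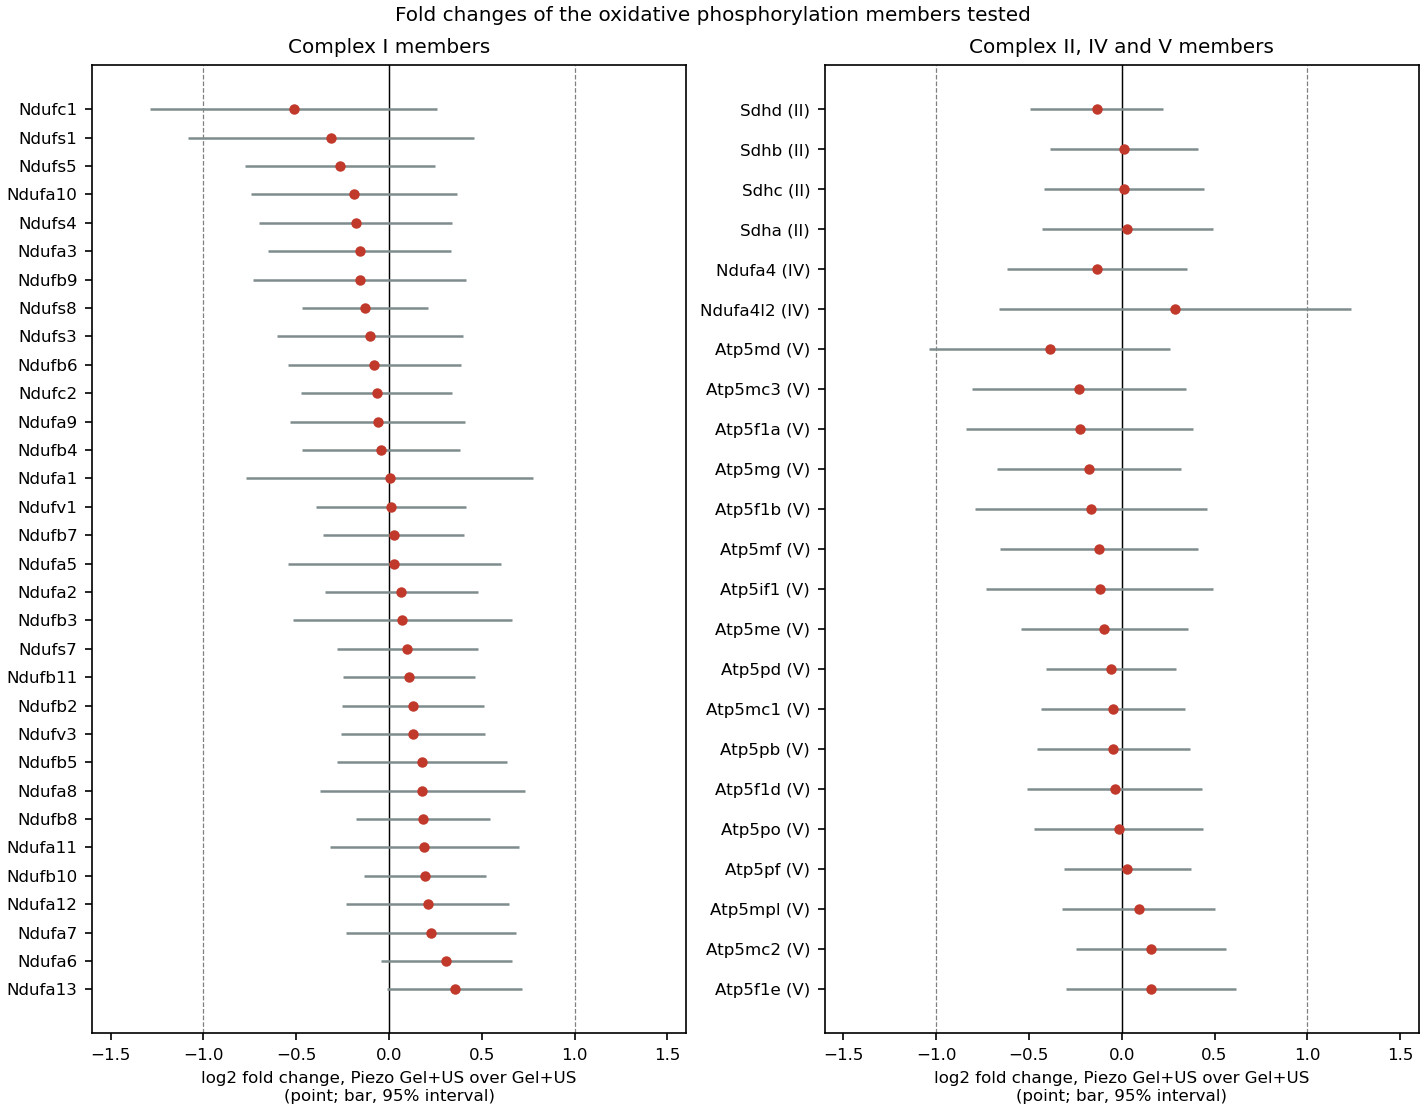
Log2 fold change of Piezo Gel+US over Gel+US (x axis) for 55 of the 56 tested members, complex I on the left and complexes II, IV and V on the right. Points are edgeR estimates, bars are 95% intervals and dashed lines mark 2-fold. Every interval crosses 0, and the estimates run from -0.51 for Ndufc1 to 0.35 for Ndufa13.

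Levels were compared between subunits per kilobase of the gene length in the deposited table. By the mean of both groups the most abundant was Atp5f1b, the catalytic beta subunit of ATP synthase, at 401 CPM per kilobase in Piezo Gel+US against 450.0 in Gel+US. Next came Cox4i1, the ubiquitous form of a regulatory subunit of cytochrome c oxidase, at 410.3 CPM per kilobase in Piezo Gel+US against 413 in Gel+US, and Atp5f1a, the alpha subunit of ATP synthase, at 270.5 CPM per kilobase in Piezo Gel+US against 317 in Gel+US. Within complex I, Ndufb8 was the most abundant, at 140.0 CPM per kilobase in Piezo Gel+US against 123 in Gel+US. Sdhc led complex II, at 137 CPM per kilobase in Piezo Gel+US against 135 in Gel+US, and Uqcrh led complex III, at 137 CPM per kilobase in Piezo Gel+US against 152 in Gel+US. The lowest tested members were Ndufc1, at 6.53 CPM per kilobase in Piezo Gel+US against 9.32 in Gel+US, and Ndufa4l2, at 7.30 CPM per kilobase in Piezo Gel+US against 5.99 in Gel+US. In Piezo Gel+US, Cox4i1 stood just above Atp5f1b and Cox6a1, at 309 CPM per kilobase against 249 in Gel+US, stood above Atp5f1a, while in Gel+US both orders were the other way round. The fold changes of these 4 genes had intervals that include 0.

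**Figure D2:**
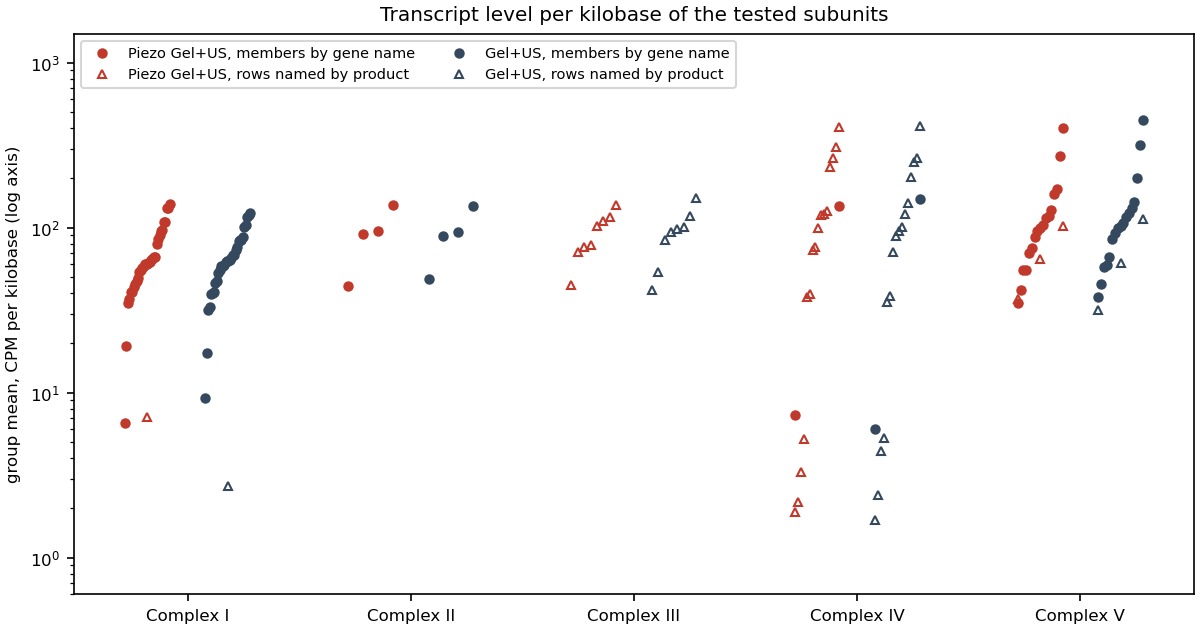
Group mean level in CPM per kilobase (log axis) of the tested subunits but 1, by complex. Within each complex the Piezo Gel+US points are at the left and the Gel+US points at the right, filled circles are members and open triangles are rows named by their product. The highest circles are Atp5f1b at 401 CPM per kilobase in Piezo Gel+US against 450.0 in Gel+US.

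The promoter windows of 5 subunits are shown as examples, picked from the genes that carry the contrasts described further on. Ndufs1 and Uqcrc1 were highest in Gel+US replicate 3, Ndufa13 and Cox8a were lowest there, and Ndufa6 was higher in all 3 Piezo Gel+US libraries. Each window holds 250 bases before and 50 bases after the gene start in RefSeq, build GRCr8 of the Norway rat, and reads along the gene. Windows were matched by symbol, since the gene numbers of the count table are not in that annotation. Capitals mark 3 letter strings on either strand, GCGCATGCG (NRF1-type), CCGGAAG (ETS-type) and AAGATGGCG (YY1-type), which are the cores bound by nuclear respiratory factor 1, by ETS factors such as GABP and by YY1.
Ndufs1 (chr9:72073556-72073855, minus strand): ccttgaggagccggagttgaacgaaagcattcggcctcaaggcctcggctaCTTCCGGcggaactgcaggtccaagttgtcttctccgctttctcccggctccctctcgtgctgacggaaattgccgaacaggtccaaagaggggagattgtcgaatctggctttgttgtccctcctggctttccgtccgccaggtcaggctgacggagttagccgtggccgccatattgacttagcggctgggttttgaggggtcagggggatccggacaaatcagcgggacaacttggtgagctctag
Ndufa13 (chr16:19560276-19560575, plus strand): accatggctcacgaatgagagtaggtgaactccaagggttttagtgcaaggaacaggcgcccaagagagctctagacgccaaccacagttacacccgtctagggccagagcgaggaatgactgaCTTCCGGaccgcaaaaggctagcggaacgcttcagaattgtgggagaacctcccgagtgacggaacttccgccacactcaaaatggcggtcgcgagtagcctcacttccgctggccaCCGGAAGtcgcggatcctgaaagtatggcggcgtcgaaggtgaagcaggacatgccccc
Ndufa6 (chr7:115750268-115750567, minus strand): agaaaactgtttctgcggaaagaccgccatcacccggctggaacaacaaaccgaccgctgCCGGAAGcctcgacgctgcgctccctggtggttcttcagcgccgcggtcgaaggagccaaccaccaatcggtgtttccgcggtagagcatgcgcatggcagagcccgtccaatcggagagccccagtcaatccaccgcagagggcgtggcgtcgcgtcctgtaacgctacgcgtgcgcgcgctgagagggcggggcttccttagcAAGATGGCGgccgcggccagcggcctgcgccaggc
Uqcrc1 (chr8:118467973-118468272, plus strand): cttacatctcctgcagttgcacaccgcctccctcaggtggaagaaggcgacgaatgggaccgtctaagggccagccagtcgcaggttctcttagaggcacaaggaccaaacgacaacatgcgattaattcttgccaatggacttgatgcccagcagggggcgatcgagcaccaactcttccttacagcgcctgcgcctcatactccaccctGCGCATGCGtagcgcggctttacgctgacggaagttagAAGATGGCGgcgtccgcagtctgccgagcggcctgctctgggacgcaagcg
Cox8a (chr1:213833574-213833873, minus strand): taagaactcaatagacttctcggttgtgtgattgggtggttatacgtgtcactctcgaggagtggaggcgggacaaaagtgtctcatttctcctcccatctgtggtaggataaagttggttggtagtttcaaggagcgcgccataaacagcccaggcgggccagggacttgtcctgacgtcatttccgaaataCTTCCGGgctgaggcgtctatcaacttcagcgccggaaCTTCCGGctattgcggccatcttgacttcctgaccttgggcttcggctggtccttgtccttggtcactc

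A window was found for 53 of the 57 members, with both strands searched. CCGGAAG was present in 14 of them (26.4%), against 8.75% of all 33469 windows of the same length in the table. AAGATGGCG was present in 8 (15.1%), against 1.73% of all windows, and GCGCATGCG in 5 (9.43%), against 1.52%. At least 1 of the 3 strings occurred in 22 members (41.5%), against 11.3% of all windows and 14.9% of the 19685 windows of genes with a symbol of their own. Over those 19685 windows the shares were 11.6% for CCGGAAG, 2.23% for AAGATGGCG and 2.11% for GCGCATGCG. Among the rows named by product, 8 of 21 windows (38.1%) held at least 1. GCGCATGCG on one strand often overlaps itself on the other by a shift of 1 base, so windows were counted and not matches. Ndufs1 and Ndufa13, which differed in the library where they were highest, both held CCGGAAG. The 5 windows printed above all held a string, unlike most members. Ndufb10, also higher in all 3 Piezo Gel+US libraries, and Ndufa10, also highest in Gel+US replicate 3, held none of them. A match describes the letters only, and the printed windows do not link the strings to the contrasts. The comparison windows were not matched to the members in base makeup or in expression, so the shares do not separate these from membership.

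**Figure D3:**
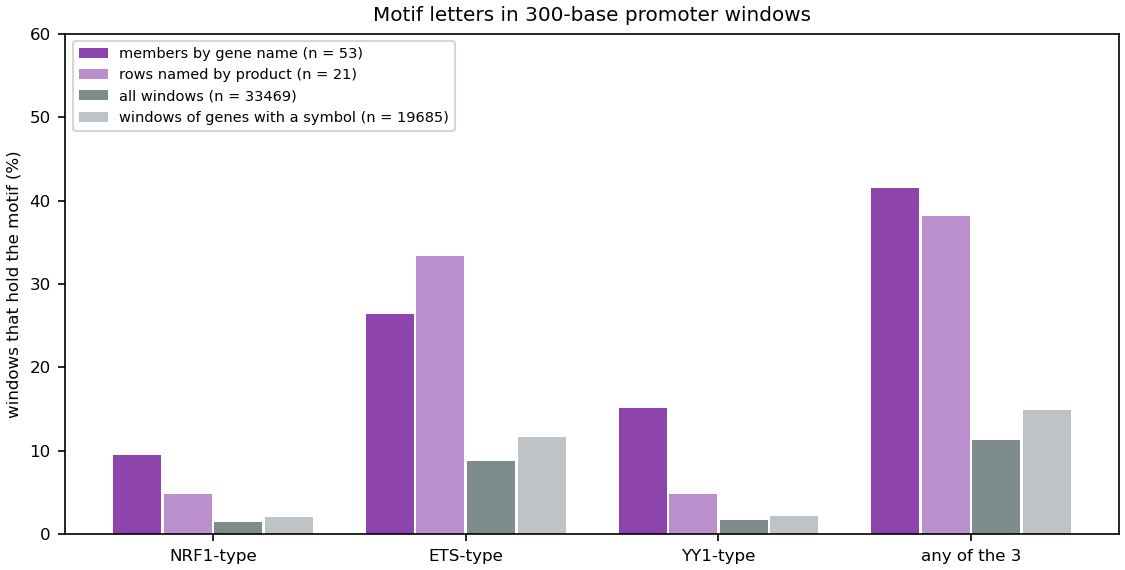
Share of 300-base promoter windows (y axis, %) that hold each letter string on either strand. For each string the bars are, from left to right, the 53 members, the 21 rows named by product, all 33469 windows and the 19685 windows of genes with a symbol. The bars for any of the 3 strings stand at 41.5%, 38.1%, 11.3% and 14.9%.

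Complex I takes electrons from NADH through a peripheral arm of flavin and iron-sulfur subunits, and many accessory subunits surround it. Of its 33 tested members, 19 were higher and 14 lower in Piezo Gel+US, with a median log2 fold change of 0.026. Leaving out 1 library at a time, that median was lowest with replicate 1 of Piezo Gel+US left out (-0.082), also below 0 with replicate 1 or 2 of Gel+US left out, and highest with replicate 3 of Gel+US left out (0.10). The 6 core redox members of the peripheral arm had 2 higher and 4 lower, with a median of -0.070. Ndufv2, also a core subunit of that arm, and the accessory subunit Ndufs6 were found neither among the members nor among the rows named by product. The complex I list is therefore not complete. The 27 tested accessory members had 17 higher and 10 lower, with a median of 0.066. None passed the test.

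Ndufs1, the largest iron-sulfur subunit, had 153, 97.8 and 156 CPM in the Piezo Gel+US libraries, against 155, 114 and 236 CPM in the Gel+US libraries. Gel+US replicate 3 was the highest and Piezo Gel+US replicate 2 the lowest, and the groups overlapped. Its log2 fold change was -0.31 (95% interval -1.08 to 0.46). Ndufv1, which binds the flavin and NADH, had 124, 99.9 and 115 CPM in the Piezo Gel+US libraries, against 109.7, 102 and 125 CPM in the Gel+US libraries. These values overlapped almost completely, with a log2 fold change of 0.0088 (95% interval -0.40 to 0.41). Ndufs8, an iron-sulfur subunit close to the membrane and named after its values were seen, had 46.7, 45.4 and 48.0 CPM in the Piezo Gel+US libraries, against 48.4, 50.4 and 54.7 CPM in the Gel+US libraries. All 3 Piezo Gel+US libraries were below all 3 Gel+US libraries, by a log2 fold change of -0.13 (95% interval -0.47 to 0.21).

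Ndufa13, an accessory subunit also known as GRIM-19, had 74.0, 75.5 and 72.4 CPM in the Piezo Gel+US libraries, against 59.2, 63.6 and 50.8 CPM in the Gel+US libraries. The 3 Piezo Gel+US libraries lay close together above the 3 Gel+US libraries, and the fitted level was 1.28-fold higher (log2 fold change 0.35, 95% interval -0.0097 to 0.72, adjusted p = 0.994, edgeR). Ndufa6, an accessory subunit near the junction of the arms, had 45.6, 46.8 and 51.8 CPM in the Piezo Gel+US libraries, against 37.0, 40.4 and 38.9 CPM in the Gel+US libraries. Again the groups did not overlap, at a log2 fold change of 0.31 (95% interval -0.042 to 0.66). Ndufb10, an accessory subunit of the membrane arm that was named after its values were seen, had 63.1, 70.2 and 64.9 CPM in the Piezo Gel+US libraries, against 58.9, 56.9 and 57.4 CPM in the Gel+US libraries. Besides Ndufa13 and Ndufa6 it was the only member with all Piezo Gel+US libraries above all Gel+US libraries, at a log2 fold change of 0.20 (95% interval -0.13 to 0.52). In total 3 of 56 members did not overlap in the higher direction (background 4.08%) and 1 in the lower direction (background 2.73%), 4 in all against 6.81% of all genes tested. Ndufb8, an accessory subunit of the membrane arm, had 102, 93.0 and 111 CPM in the Piezo Gel+US libraries, against 90.5, 84.9 and 94.2 CPM in the Gel+US libraries, and the groups overlapped at a log2 fold change of 0.18 (95% interval -0.18 to 0.54).

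Ndufc1, a small membrane subunit, was the member with the largest difference in size. Its named row had 8.64, 16.1 and 8.28 CPM in the Piezo Gel+US libraries, against 12.7, 16.0 and 18.5 CPM in the Gel+US libraries. Replicate 2 of Piezo Gel+US lay with the Gel+US libraries while the other 2 were lower, at a log2 fold change of -0.51 (95% interval -1.29 to 0.26). That value was -0.90 with replicate 2 of Piezo Gel+US left out and -0.34 with its replicate 3 left out. A second row with the same matched protein had the opposite sign, with 5.55, 1.51 and 4.35 CPM in the Piezo Gel+US libraries, against 2.25, 1.39 and 0.702 CPM in the Gel+US libraries, and a log2 fold change of 1.39 (95% interval -0.12 to 2.90). That row has no intron in the deposited table, since its span equals its gene length of 535 bases. Whether it is a working gene or a copy was not tested. Summed over both rows, the level was 14.2, 17.7 and 12.6 CPM in the Piezo Gel+US libraries, against 14.98, 17.4 and 19.2 CPM in the Gel+US libraries. The summed groups overlapped, at a log2 fold change of -0.21 (95% interval -0.72 to 0.29), so the estimate moved by over 1.5 times with the way the rows were combined. The other accessory members ranged from -0.26 (Ndufs5) to 0.22 (Ndufa7) on the log2 scale. Of these, chosen after their values were seen, Ndufa10 had 119.9, 115 and 121 CPM in the Piezo Gel+US libraries, against 116, 108 and 182 CPM in the Gel+US libraries, where Gel+US replicate 3 stood above 5 libraries that lay within a narrow band. Ndufa1, a small subunit needed to build the membrane arm, had 23.1, 14.3 and 15.5 CPM in the Piezo Gel+US libraries, against 16.6, 24.2 and 11.98 CPM in the Gel+US libraries, with the highest and the lowest library both in Gel+US.

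Complex II is the one respiratory complex that is also an enzyme of the citric acid cycle, and all its subunits are nuclear. Its 4 members had a median log2 fold change of 0.012, with 3 higher and 1 lower. It was -0.022 with replicate 1 of Piezo Gel+US left out, -0.041 with its replicate 3 left out, -0.10 with replicate 2 of Gel+US left out and 0.090 with its replicate 3 left out. Sdha, the flavin subunit that oxidises succinate, had 263, 219 and 291 CPM in the Piezo Gel+US libraries, against 253, 225 and 279 CPM in the Gel+US libraries. Sdhb, the iron-sulfur subunit, had 107, 93.5 and 105 CPM in the Piezo Gel+US libraries, against 105, 86.4 and 112 CPM in the Gel+US libraries. Both overlapped almost completely between the groups, with log2 fold changes of 0.029 (95% interval -0.43 to 0.49) and 0.011 (95% interval -0.39 to 0.41). Of the membrane anchors, Sdhc had 151, 169 and 167 CPM in the Piezo Gel+US libraries, against 159, 137 and 187 CPM in the Gel+US libraries, with Gel+US libraries at both ends of the range. Sdhd had 60.5, 50.7 and 61.3 CPM in the Piezo Gel+US libraries, against 64.8, 61.1 and 63.3 CPM in the Gel+US libraries, where Piezo Gel+US replicate 2 alone lay below the rest. The log2 fold changes of the anchors were 0.013 (95% interval -0.42 to 0.44) and -0.13 (95% interval -0.49 to 0.22).

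Complex III moves electrons from ubiquinol to cytochrome c. Its 8 rows, named by product and not members under the rule, had 4 higher and 4 lower and a median log2 fold change of -0.0079, which was 0.035 with replicate 2 of Piezo Gel+US left out and 0.070 with replicate 3 of Gel+US left out. The core proteins Uqcrc1 and Uqcrc2 and the Rieske iron-sulfur protein Uqcrfs1 were all highest in Gel+US replicate 3. Uqcrc1 had 194, 162 and 207 CPM in the Piezo Gel+US libraries, against 180.5, 153 and 241 CPM in the Gel+US libraries. Uqcrc2 had 168, 112 and 167 CPM in the Piezo Gel+US libraries, against 178, 134 and 225 CPM in the Gel+US libraries. Their log2 fold changes were -0.030 (95% interval -0.56 to 0.50) and -0.27 (95% interval -0.89 to 0.36), and that of Uqcrfs1 was -0.13 (95% interval -0.62 to 0.36). The small subunit Uqcr11 differed from them, with 63.6, 57.2 and 53.8 CPM in the Piezo Gel+US libraries, against 45.5, 50.3 and 37.0 CPM in the Gel+US libraries. All its Piezo Gel+US libraries were above all its Gel+US libraries, and Gel+US replicate 3 was the lowest (log2 fold change 0.40, 95% interval -0.022 to 0.81, adjusted p = 0.994, edgeR). Uqcrh, the hinge protein, was the converse, with 80.2, 76.8 and 80.8 CPM in the Piezo Gel+US libraries, against 81.2, 83.9 and 100.1 CPM in the Gel+US libraries, no overlap and a log2 fold change of -0.16 (95% interval -0.52 to 0.21).

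Complex IV has subunits with alternative forms, some of them ubiquitous and some restricted to heart and skeletal muscle, lung or testis. The 2 members under the rule are Ndufa4, first taken for a complex I subunit and since placed in complex IV, and its relative Ndufa4l2, which is known from hypoxic cells and from pericytes. Ndufa4 had 88.3, 69.6 and 88.5 CPM in the Piezo Gel+US libraries, against 86.0, 74.8 and 109.9 CPM in the Gel+US libraries. Ndufa4l2 had 6.03, 8.75 and 6.83 CPM in the Piezo Gel+US libraries, against 7.11, 7.61 and 3.01 CPM in the Gel+US libraries. Their log2 fold changes were -0.14 (95% interval -0.62 to 0.35) and 0.29 (95% interval -0.66 to 1.24), with a median of 0.075 for the pair and of -0.0094 with replicate 3 of Gel+US left out. That library was the highest for Ndufa4 and the lowest for Ndufa4l2, and the share of Ndufa4l2 in the sum of both, per kilobase, was 4.02%, 7.16% and 4.52% in the Piezo Gel+US libraries, against 4.82%, 5.87% and 1.65% in the Gel+US libraries. Summed pericyte markers were also lowest in that library, at 489.6 CPM, against 578 to 793 CPM in the Piezo Gel+US libraries and 754 and 808 CPM in the other Gel+US libraries. All 8 matched pericyte markers were detected, and their part in the result was not tested. Ndufa4l2 and Cox4i2 are on that marker list.

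The 16 tested complex IV rows named by product had 8 higher and 8 lower and a median log2 fold change of 0.015. Cox4i1 had 312, 249 and 318 CPM in the Piezo Gel+US libraries, against 291, 272 and 321 CPM in the Gel+US libraries. Cox5a, which with Cox4i1 is added early in assembly, had 90.3, 69.9 and 89.7 CPM in the Piezo Gel+US libraries, against 87.7, 85.2 and 117 CPM in the Gel+US libraries. The groups overlapped for both, with log2 fold changes of -0.010 (95% interval -0.46 to 0.44) and -0.21 (95% interval -0.69 to 0.26). Cox8a, one of the smallest subunits, had 155, 120.0 and 142 CPM in the Piezo Gel+US libraries, against 116, 118 and 83.8 CPM in the Gel+US libraries. All 3 Piezo Gel+US libraries were above the Gel+US libraries, Gel+US replicate 3 was the lowest, and the log2 fold change was 0.39 (95% interval -0.088 to 0.87). Cox5b, a zinc-binding subunit, had 75.7, 56.3 and 72.5 CPM in the Piezo Gel+US libraries, against 56.4, 56.0 and 42.6 CPM in the Gel+US libraries. Cox6a1 had 200.3, 147 and 181 CPM in the Piezo Gel+US libraries, against 154, 151 and 121 CPM in the Gel+US libraries. For both of these the lowest library was Gel+US replicate 3 and the groups overlapped, with log2 fold changes of 0.40 (95% interval -0.066 to 0.86) and 0.31 (95% interval -0.15 to 0.78).

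The ubiquitous form was the main one in every family. The share of Cox4i2, the form known from lung and hypoxic cells, in its sum with Cox4i1, per kilobase, was 0.357%, 0.477% and 0.722% in the Piezo Gel+US libraries, against 0.702%, 0.222% and 0.297% in the Gel+US libraries. The share of Cox6a2, the heart and muscle form, in its sum with Cox6a1, per kilobase, was 1.22%, 2.09% and 1.79% in the Piezo Gel+US libraries, against 2.14%, 1.51% and 2.72% in the Gel+US libraries. Both forms stayed a minor part in every library. The share of Cox7a1, also a heart and muscle form, in its sum with Cox7a2, per kilobase, was 3.63%, 3.43% and 2.51% in the Piezo Gel+US libraries, against 3.59%, 1.80% and 1.45% in the Gel+US libraries. The share of Cox6b2, known from testis, in its sum with Cox6b1, per kilobase, was 1.02%, 2.90% and 0.679% in the Piezo Gel+US libraries, against 2.45%, 6.04% and 1.92% in the Gel+US libraries. Cox6b2 was the least even of these forms, and its log2 fold change was -1.22 (95% interval -2.99 to 0.55). That value was -2.06 with replicate 2 of Piezo Gel+US left out and -0.51 with replicate 2 of Gel+US left out. In none of these 4 families did the 3 Piezo Gel+US libraries lie all above or all below the Gel+US libraries. Read by replicate number, a pairing taken from these data, the Cox6b2 share was lower in Piezo Gel+US in all 3 pairs. The Cox7a1 share was higher in all 3, though nearly equal in replicate 1 (3.63% against 3.59%). By the same pairs the Cox4i2 and Cox6a2 shares went both ways. These shares use the named rows only, and that of Cox6b1 held 85.4% of the counts of all rows matched to its protein. Counts were few, at 237 for Cox7a1 and 179 for Cox6b2 over all libraries, and these differences were not tested. Cox8b, Cox8c and Cox7b2 were not tested, with 8 counts for Cox8b, 0 for Cox8c and 1 for Cox7b2 over all libraries. Summed skeletal muscle markers were low, at 55.0 to 159 CPM in Piezo Gel+US against 47.5 to 57.2 CPM in Gel+US. Cox7a2l, a factor in the joining of complexes III and IV, varied little, with 73.2, 85.2 and 79.9 CPM in the Piezo Gel+US libraries, against 73.5, 77.4 and 79.7 CPM in the Gel+US libraries.

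Complex V has an F1 head that makes ATP, a ring of c subunits that turns in the membrane, a peripheral stalk and small membrane subunits. Of its 17 members, 4 were higher and 13 lower in Piezo Gel+US, with a median log2 fold change of -0.057. That median ran from -0.12 with replicate 1 of Piezo Gel+US left out to 0.026 with replicate 3 of Gel+US left out. Atp5f1b had 799.8, 652 and 834 CPM in the Piezo Gel+US libraries, against 808, 666 and 1089 CPM in the Gel+US libraries. Atp5f1a had 550.5, 436 and 575 CPM in the Piezo Gel+US libraries, against 559, 486 and 783 CPM in the Gel+US libraries. The highest library was Gel+US replicate 3 for both, the other 5 libraries overlapped, and the log2 fold changes were -0.17 (95% interval -0.79 to 0.46) and -0.23 (95% interval -0.84 to 0.38). With replicate 3 of Gel+US left out, that of Atp5f1b was 0.040 and that of Atp5f1a was -0.012. With replicate 2 of Gel+US left out they were -0.33 and -0.38. The head is built from alpha, beta and gamma subunits in a fixed ratio, and the transcripts kept nearly constant proportions. Per kilobase, the ratio of Atp5f1b to the gamma subunit Atp5f1c, a row named by its product, was 3.93, 3.78 and 4.06 in the Piezo Gel+US libraries, against 3.99, 3.90 and 4.04 in the Gel+US libraries. That of Atp5f1a to Atp5f1c was 2.67, 2.49 and 2.77 in the Piezo Gel+US libraries, against 2.73, 2.80 and 2.87 in the Gel+US libraries. The small epsilon subunit did not keep step, and the ratio of Atp5f1e to Atp5f1c was 1.51, 1.97 and 1.27 in the Piezo Gel+US libraries, against 1.31, 1.88 and 0.849 in the Gel+US libraries.

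The c subunit of the ring is made from 3 genes that encode the same mature protein. Atp5mc3 had 136, 120.5 and 145 CPM in the Piezo Gel+US libraries, against 134, 126 and 211 CPM in the Gel+US libraries, and its share of the 3 transcripts, per kilobase, was 50.9%, 46.3% and 52.6% in the Piezo Gel+US libraries, against 53.1%, 47.7% and 63.5% in the Gel+US libraries. Atp5mc2 had 77.2, 88.4 and 82.9 CPM in the Piezo Gel+US libraries, against 71.2, 86.8 and 64.8 CPM in the Gel+US libraries, with Gel+US replicate 3 the lowest where Atp5mc3 was the highest. Atp5mc1 varied little, with 47.3, 43.4 and 40.8 CPM in the Piezo Gel+US libraries, against 41.0, 43.8 and 51.1 CPM in the Gel+US libraries. The log2 fold changes were -0.23 (95% interval -0.80 to 0.34) for Atp5mc3, 0.16 (95% interval -0.25 to 0.56) for Atp5mc2 and -0.047 (95% interval -0.43 to 0.34) for Atp5mc1. These shares use the named rows only, and the named row of Atp5mc2 had 66.2% of the counts of the 12 rows matched to its protein. With the rows of each protein summed, and the length of the named row, the share of Atp5mc3 was 44.1%, 38.7% and 44.8% in the Piezo Gel+US libraries, against 44.7%, 40.2% and 57.6% in the Gel+US libraries. The summed share of Atp5mc2 was 40.0%, 46.9% and 42.1% in the Piezo Gel+US libraries, against 41.3%, 45.3% and 28.4% in the Gel+US libraries. So summed, Atp5mc2 was above Atp5mc3 in replicate 2 of both groups and below it in the other 4 libraries. Atp5if1, the inhibitor that blocks reverse action of the enzyme, had 46.8, 31.4 and 25.6 CPM in the Piezo Gel+US libraries, against 33.3, 42.4 and 37.1 CPM in the Gel+US libraries. Its highest and lowest libraries were both in Piezo Gel+US, at a log2 fold change of -0.12 (95% interval -0.73 to 0.49). Atp5md, a small membrane subunit also called Atp5mk, had 47.3, 29.3 and 33.8 CPM in the Piezo Gel+US libraries, against 38.7, 42.4 and 63.4 CPM in the Gel+US libraries, and was the lowest of the complex V members in fold change, -0.39 (95% interval -1.04 to 0.26). The 4 peripheral stalk members (Atp5pb, Atp5pd, Atp5pf and Atp5po) stayed between -0.057 and 0.029 on the log2 scale.

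**Figure D4:**
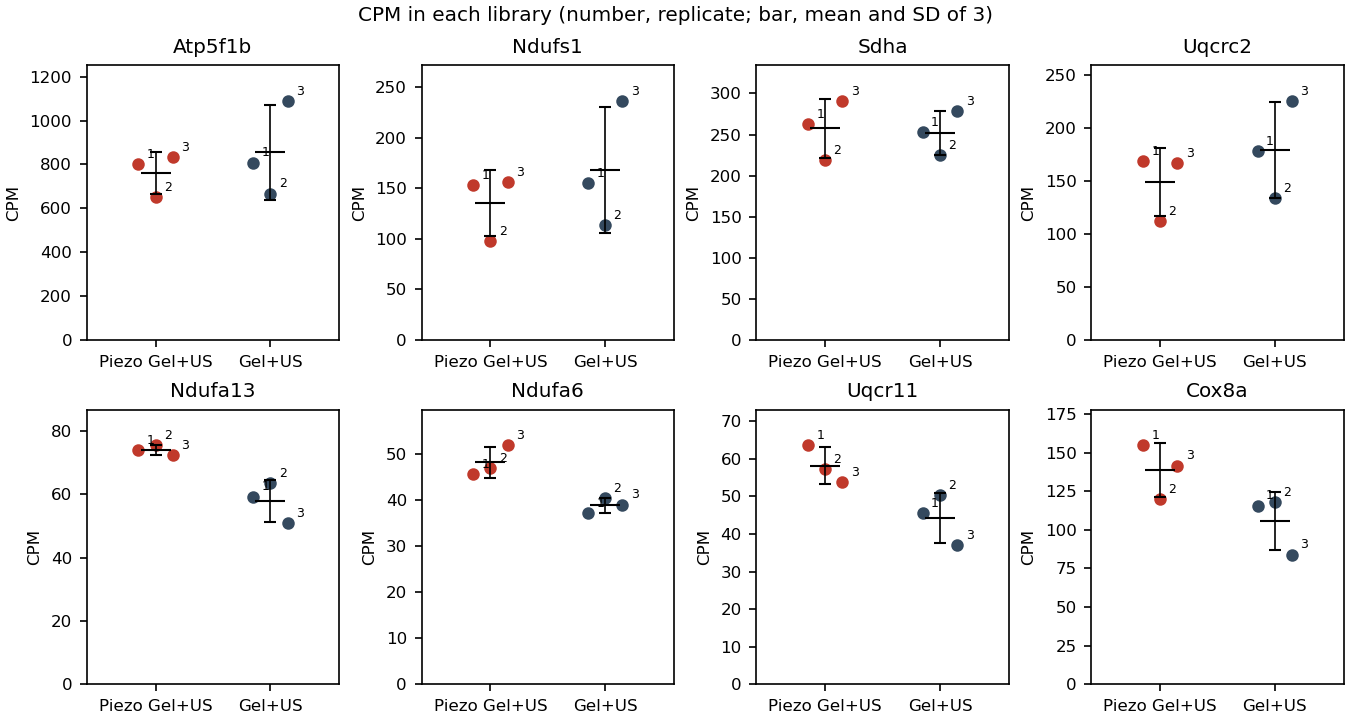
CPM (y axis, from 0) in each library for 8 subunits, Piezo Gel+US at the left and Gel+US at the right. Points are libraries with their replicate number, and bars are the mean and SD of 3. Gel+US replicate 3 is the highest library for Atp5f1b, Ndufs1 and Uqcrc2 and the lowest for Ndufa13, Uqcr11 and Cox8a.

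The members' levels differed between libraries of the same group. Of the 56 members, 32 (57.1%) were highest in Gel+US replicate 3, against 24.4% of all genes tested and 28.4% of those with a mean above 10 CPM. Another 20 members were lowest in Piezo Gel+US replicate 2 (35.7%, against 28.4% of all genes) and 19 in Gel+US replicate 2 (33.9%, against 15.8%). The summed level of the members was 5234, 4609 and 5321 CPM in the Piezo Gel+US libraries, against 5021, 4567 and 6283 CPM in the Gel+US libraries. By role, the members highest in Gel+US replicate 3 were 5 of 6 core redox and 14 of 27 accessory members of complex I, 2 of 4 members of complex II and 1 of 2 of complex IV. In complex V they were 3 of 4 of the F1 head, 2 of 3 of the c ring, 3 of 4 of the peripheral stalk, 2 of 5 small membrane subunits and 0 of 1 inhibitor. The 28 tested rows named by product differed, with 12 (42.9%, against 7.75% of all genes) at their highest in Piezo Gel+US replicate 1. Another 11 of these rows (39.3%) had their peak in replicate 3 of Gel+US. The level of Gel+US replicate 3 over the mean of the other 5 libraries ranged from 0.83 (Ndufs1) to -1.23 (Ndufa4l2) on the log2 scale. After Ndufs1, the members furthest above were Atp5md at 0.75, Atp5mc3 at 0.68 and Ndufa10 at 0.65. The members furthest below, apart from Ndufa4l2, were Ndufa1 at -0.61, Ndufa13 at -0.43, Ndufa11 at -0.40 and Atp5f1e at -0.38. With replicate 2 of Piezo Gel+US left out, 31 of the 56 were higher in that group and the median over all 56 was 0.030.

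**Figure D5:**
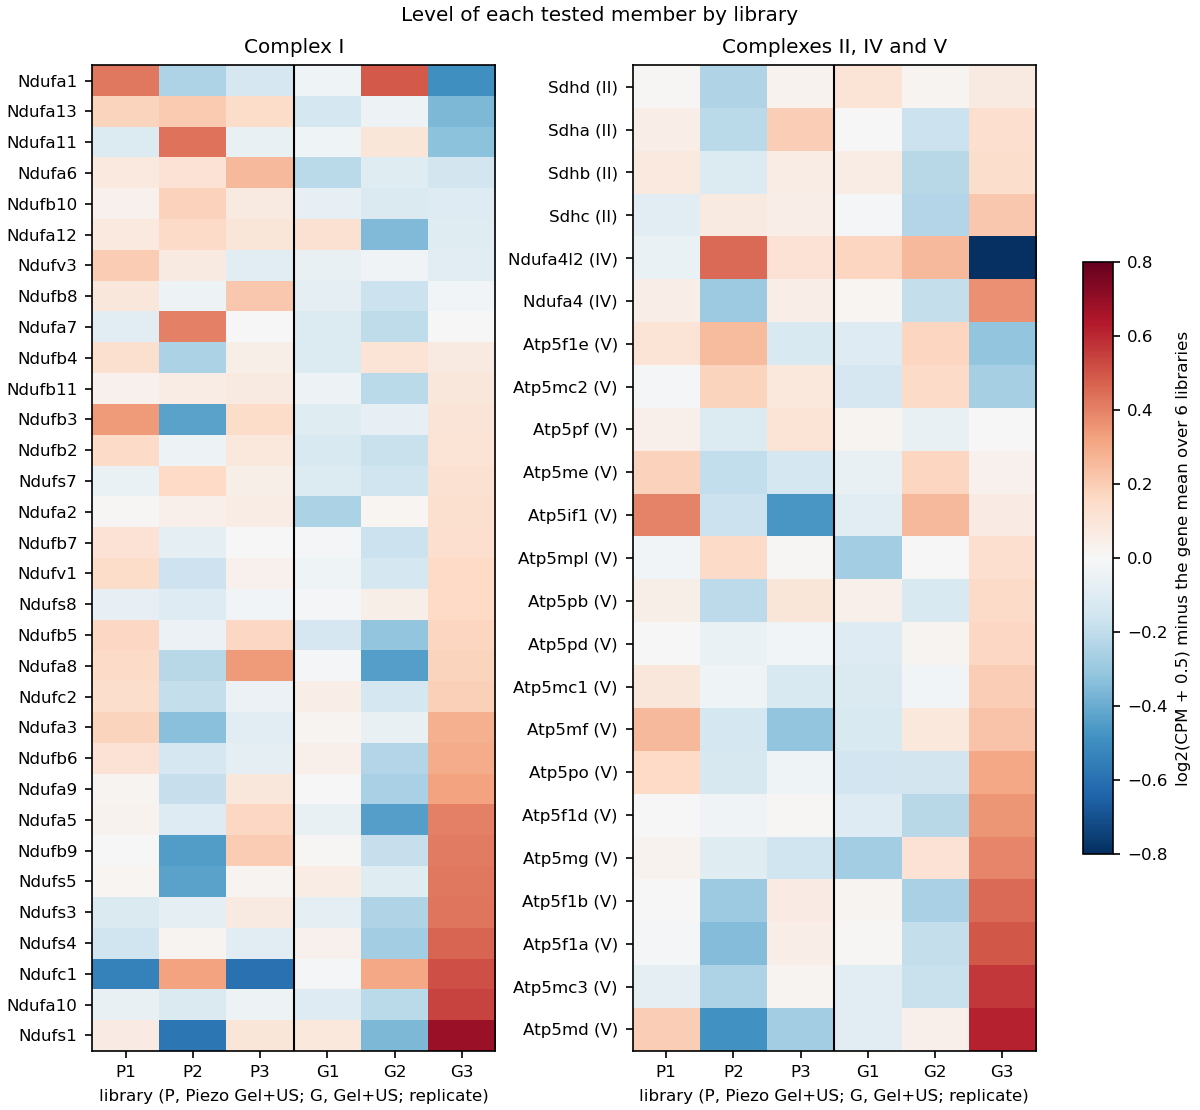
Log2(CPM + 0.5) of 55 of the 56 tested members (rows) in each library (columns, Piezo Gel+US replicates 1 to 3 as P1 to P3, then Gel+US replicates 1 to 3 as G1 to G3), minus the mean of that gene over the 6 libraries. Red is above the mean and blue below it, and the colour scale ends at 0.8 either way, which Ndufa4l2 passes in G3. The column of Gel+US replicate 3 is the most often red, with 31 of the 55 at their highest there, from Ndufs1 at the foot of complex I to the blue Ndufa1 at its head.

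Subunits were paired because they went opposite ways in Gel+US replicate 3, so their ratios are a description of that library. The ratio of Ndufa13 to Ndufs1, per kilobase, was 2.46, 3.93 and 2.36 in the Piezo Gel+US libraries, against 1.94, 2.85 and 1.09 in the Gel+US libraries. That of Cox8a to Cox4i1 was 0.678, 0.660 and 0.609 in the Piezo Gel+US libraries, against 0.543, 0.591 and 0.357 in the Gel+US libraries. Both were lowest in Gel+US replicate 3, as the choice of pairs fixes. Gene length moved with this pattern. The 21 members of 1000 bases or longer had a median of 0.39 (log2) in Gel+US replicate 3 over the other libraries, and the 35 shorter ones had 0.16. Over all genes tested, those of 1000 bases or longer had a median of -0.0012 and the shorter ones -0.17. Across the 56 members, Pearson's r between log2 length and this difference was 0.35 and Spearman's rho 0.38, as a description across genes, which are not independent replicates.

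Markers of neurons were also highest in Gel+US replicate 3. All 21 had a lower mean estimate in Piezo Gel+US, none of them called, and their summed level was 11166, 3013 and 6604 CPM in the Piezo Gel+US libraries, against 10087, 3908 and 21385 CPM in the Gel+US libraries. In Piezo Gel+US replicate 2, where many members were low, neuron markers were lowest and the summed Schwann cell markers highest, at 8364, 74571 and 14520.4 CPM in the Piezo Gel+US libraries, against 5249, 8280.4 and 8087 CPM in the Gel+US libraries. All 21 neuron markers and all 11 matched Schwann cell markers were detected. The Schwann cell markers all had a higher estimate in Piezo Gel+US, and none of them was called. Of the 11, 7 had an unadjusted p below 0.05 (edgeR), against 2.1% of all genes tested. Summed astrocyte markers were 8584, 3844 and 8065 CPM in the Piezo Gel+US libraries, against 8430.2, 5973 and 8934 CPM in the Gel+US libraries, also lowest in Piezo Gel+US replicate 2, with 12 of 12 matched markers detected. Summed fibroblast markers, 11 of 11 detected, were high in both libraries where the members were low, at 1683, 6482 and 2032 CPM in the Piezo Gel+US libraries, against 1550.3, 8363 and 1185 CPM in the Gel+US libraries. Oligodendrocyte markers were lowest in both of those libraries. Their sums were 53544, 32418 and 53731 CPM in the Piezo Gel+US libraries, against 45316, 28043 and 41077 CPM in the Gel+US libraries. Each of the 9 tested ependymal markers had a lower estimate in Piezo Gel+US, none called and 2 at an unadjusted p below 0.05 (edgeR). The ependymal sum was lowest in Piezo Gel+US replicate 2 (48.0 CPM) but highest in Gel+US replicate 2 (118 CPM). Erythroid markers, 3 matched and all detected, were highest in Gel+US replicate 2, at 8145, 1959 and 658 CPM in the Piezo Gel+US libraries, against 6362, 17910.0 and 371 CPM in the Gel+US libraries. The part of cell makeup and of gene length in the members' levels was not tested.

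Lists of genes around the respiratory chain were read in the same way, and no gene of these lists passed the test. Of 18 tested genes of the citric acid cycle, 2 were higher and 16 lower in Piezo Gel+US, with a median log2 fold change of -0.17. Citrate synthase, Cs, had 260.4, 215 and 253 CPM in the Piezo Gel+US libraries, against 253, 219 and 295 CPM in the Gel+US libraries. Fh, fumarase, had 50.3, 44.2 and 55.3 CPM in the Piezo Gel+US libraries, against 59.5, 50.4 and 75.2 CPM in the Gel+US libraries. Gel+US replicate 3 was highest for both, and the summed level of this list was also highest there, at 2738, 2219 and 2796 CPM in the Piezo Gel+US libraries, against 2749, 2253 and 3523 CPM in the Gel+US libraries. Of 26 glycolytic genes and their regulators, 11 were higher and 15 lower, with a median of -0.096. Hexokinase 2, Hk2, had 34.3, 16.95 and 21.7 CPM in the Piezo Gel+US libraries, against 25.3, 22.0 and 19.6 CPM in the Gel+US libraries. Ldha, lactate dehydrogenase A, had 117, 214 and 88.4 CPM in the Piezo Gel+US libraries, against 104, 155 and 103 CPM in the Gel+US libraries. Pdk1, a kinase that switches off pyruvate dehydrogenase, had 22.2, 16.3 and 25.2 CPM in the Piezo Gel+US libraries, against 30.5, 28.6 and 29.6 CPM in the Gel+US libraries, with no overlap, all Piezo Gel+US libraries lower and a log2 fold change of -0.48, 95% interval -0.97 to 0.016, with an adjusted p of 0.994 in edgeR's test.

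The mobile electron carrier and its docking subunit were measured too. Cycs, cytochrome c, had 39.6, 23.6 and 35.1 CPM in the Piezo Gel+US libraries, against 38.5, 28.0 and 48.2 CPM in the Gel+US libraries. Cyc1, the cytochrome c1 of complex III, had 135, 119.8 and 138 CPM in the Piezo Gel+US libraries, against 132, 119.7 and 151 CPM in the Gel+US libraries. The groups overlapped for both, with log2 fold changes of -0.22 (95% interval -0.89 to 0.45) and -0.032 (95% interval -0.43 to 0.37). Assembly factors gave 5 higher and 12 lower for complex I, 5 and 3 for complexes II and III, 12 and 10 for complex IV, and 2 and 3 for complex V. Among them, Ndufaf1 of complex I had 8.64, 8.10 and 8.59 CPM in the Piezo Gel+US libraries, against 9.87, 8.89 and 15.6 CPM in the Gel+US libraries. Surf1 of complex IV had 22.2, 26.8 and 28.2 CPM in the Piezo Gel+US libraries, against 22.4, 24.0 and 16.2 CPM in the Gel+US libraries. Their log2 fold changes were -0.44 (95% interval -1.09 to 0.21) and 0.30 (95% interval -0.22 to 0.82). Regulators of mitochondrial biogenesis had 12 higher and 7 lower, with a median of 0.018. Ppargc1a, the coactivator known as a driver of mitochondrial gene expression, had 18.8, 8.05 and 19.8 CPM in the Piezo Gel+US libraries, against 22.1, 12.4 and 23.9 CPM in the Gel+US libraries, and the groups overlapped at a log2 fold change of -0.32 (95% interval -1.30 to 0.66). That value was -0.017 with replicate 2 of Piezo Gel+US left out and -0.57 with replicate 2 of Gel+US left out. Twnk, the helicase of mitochondrial DNA, had 16.2, 22.8 and 19.5 CPM in the Piezo Gel+US libraries, against 16.1, 11.6 and 15.4 CPM in the Gel+US libraries, with the lowest Piezo Gel+US library just above the highest Gel+US library and a log2 fold change of 0.44 (95% interval -0.10 to 0.98).

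Carriers of the inner membrane had 4 higher and 9 lower (median -0.13), genes of protein import and mitochondrial shape 7 and 10 (median -0.064), and genes of fatty acid oxidation 8 and 6 (median 0.022). Tomm70, an import receptor, had 137, 111 and 115 CPM in the Piezo Gel+US libraries, against 152, 113 and 293 CPM in the Gel+US libraries. Slc25a12, the aspartate-glutamate carrier of neurons and muscle, had 94.7, 54.6 and 84.5 CPM in the Piezo Gel+US libraries, against 104, 67.9 and 157 CPM in the Gel+US libraries. In both, Gel+US replicate 3 was far above the other libraries, with log2 fold changes of -0.63 (95% interval -1.48 to 0.23) and -0.49 (95% interval -1.33 to 0.35). Echs1, an enzyme of beta-oxidation, had 96.2, 130.4 and 111 CPM in the Piezo Gel+US libraries, against 77.9, 80.8 and 97.5 CPM in the Gel+US libraries, where the groups overlapped by 1 library at a log2 fold change of 0.40, 95% interval -0.041 to 0.84, with an adjusted p of 0.994 in edgeR's test.

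The other genes of these lists with the lowest p had fold changes of either sign, given here on the log2 scale. Lower in Piezo Gel+US were Dlat (-0.38), a part of pyruvate dehydrogenase, Pdk3 (-0.59), a kinase of the same complex, Tmem70 (-0.30), Sco1 (-0.39) and Atp23 (-0.40), which are assembly factors, and Etfa (-0.17), an electron transfer flavoprotein. Hif1a (-0.25), the hypoxia regulator, and Dnm1l (-0.36), which divides mitochondria, were lower too. Higher in Piezo Gel+US were the complex III assembly factors Uqcc2 (0.40) and Uqcc3 (0.39), the pyruvate carrier Mpc2 (0.36) and Eci1 (0.58), an enzyme of fatty acid oxidation. Each of these 12 had an adjusted p of 0.994 in edgeR's test.

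Copies of small subunit genes limited the precision of some levels. Reads of near-identical copies can be split between rows, and 51 rows carry products that end in "-like". The second rows of Ndufc1, Cox7b, Atp5mc2 and Atp5mf have no intron in the deposited table. Their spans equal their gene lengths of 535, 470, 640 and 426 bases. They are counted among the 31 rows named by product, and whether they are working genes or copies was not tested. The named row held 27.6% of the counts of all rows matched to its protein for Cox7c, 55.6% for Atp5mf, 67.6% for Atp5mg, 70.1% for Cox7b, 74.3% for Ndufb4 and 75.7% for Sdhd. Summing the rows of each protein, an alternative chosen after the data were seen, gave 29 members higher and 27 lower with a median log2 fold change of 0.010 and 0 calls.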

How the data were processed

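RNA was extracted with TRIzol, selected for poly(A) and made into strand-specific libraries, per the labels' protocols. The tools in the submitters' processing notes are HISAT2 2.0.5, fastp 0.19.7, DESeq2 1.20.0 and featureCounts 1.5.0-p3. No source used here states the genome build, the annotation or the strand setting of the counting, so the table's own coordinates were not printed. The sequence and gene names in the deposited table look like those of a black rat (Rattus rattus) annotation, although the labels name the Norway rat. That reading was not checked. The authors deposited raw counts per gene for the 6 libraries, with no normalization. From these, CPM scaled by TMM and a quasi-likelihood test were computed with edgeR 4.0.16 in R 4.3.3, on the 17066 genes that passed a minimum count of 10 and a minimum total of 15, with Benjamini-Hochberg adjustment over all of them. The edgeR steps were first tested on simulated data. Intervals are 95% intervals of the fitted log2 fold change. Alternatives were DESeq2 1.42.0 (its size factors and its own test), upper-quartile factors, limma 3.58.1 with voom weights, no filter, a replicate block, each library left out, and rows of one protein summed.

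The libraries are 3 per group, and the edgeR p-values set the group difference against the spread between libraries, pooled in part across genes. No source used here says how many animals entered each library. Same-numbered libraries of the 2 groups deviated together from their group means (correlations 0.253, 0.296 and 0.251 across genes). For different numbers the correlations ran from -0.342 to 0.198 (Piezo Gel+US replicate 3 with Gel+US replicates 2 and 1). Deviations within a group sum to 0, so these correlations depend on each other. The numbers were taken as pairs in the block, a pairing read from these data and not stated in the sample titles.

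One member counted in the totals is not reported here by itself. Members, gene lists and marker lists were chosen with earlier results of these data known. Named members were the 3 of lowest p and the 2 of highest level in each complex, plus core subunits and isoform families. Named genes of other lists were the 2 of lowest p and 6 chosen by role, and those not described one by one are given together. Members named outside these are Ndufs8, Ndufb10, Ndufa1, Ndufa7, Ndufa10, Ndufa11, Ndufs5, Atp5f1e, the peripheral stalk members and those with split rows, chosen after their values were seen. Locus-numbered rows were named from the product and matched protein in the deposited table. Of 373 list entries, 299 matched by symbol, 36 by matched protein and 38 were not matched. Promoter windows came from RefSeq, build GRCr8, and were found for 74 of 83 subunit names looked up.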

Additional observations from a re-analysis of the deposited data

How the results depend on the processing

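No alternative called a member. The replicate block changed no call, gave 27 members higher and a median log2 fold change of -0.010, and had 986 genes at an unadjusted p below 0.05 against 359 with no block, while limma-voom had 282 and DESeq2 had 652. Of 68 fold changes of single genes, 0 changed sign under other normalizations, DESeq2, limma-voom, no filter or the block. With rows of one protein summed, 1 of 64 did (Cox6b1, 0.049), and so did the median over the members (0.010). Leaving out each library in turn gave 20 to 42 members higher, the 42 being without Gel+US replicate 3. Sign changes were most frequent without that library (15 of 68) and numbered 3 to 8 without another. Across these 6 refits the log2 fold change ran from -0.54 to 0.0069 for Ndufs1, -0.082 to 0.088 for Ndufv1, -0.068 to 0.13 for Sdha, -0.098 to 0.081 for Sdhb, -0.10 to 0.13 for Sdhc, -0.18 to 0.16 for Uqcrc1 and -0.26 to 0.047 for Uqcrfs1. In complex IV it ran from -0.26 to 0.024 for Ndufa4, -0.042 to 0.50 for Ndufa4l2, -0.075 to 0.087 for Cox4i1, -0.065 to 0.97 for Cox4i2, -0.19 to 0.077 for Cox6a2, -0.13 to 0.063 for Cox6b1, -0.091 to 0.046 for Cox7a2, -0.014 to 0.082 for Cox7a2l and -0.084 to 0.33 for the second Cox7b row. In complex V it ran from -0.33 to 0.040 for Atp5f1b, -0.29 to 0.047 for Atp5f1c, -0.42 to 0.057 for Atp5if1, -0.12 to 0.039 for Atp5mc1, -0.38 to 0.035 for Atp5mc3, -0.063 to 0.17 for the second Atp5mc2 row and -0.17 to 0.43 for the second Atp5mf row. Outside the subunits it ran from -0.12 to 0.052 for Cyc1, -0.18 to 0.033 for Cs, -0.22 to 0.32 for Hk2 and -0.24 to 0.46 for Ldha. Of the 68, 27 changed sign in at least 1 refit, 31 kept their sign but moved by over 1.5 times and 10 moved less. Of the 31, subunits ran from 0.12 to 0.24 for Ndufb8, -0.90 to -0.34 for Ndufc1, -0.19 to -0.059 for Sdhd, -0.44 to -0.072 for Uqcrc2, -0.22 to -0.069 for Uqcrh, -0.31 to -0.061 for Cox5a, 0.19 to 0.42 for Cox6a1, -2.06 to -0.51 for Cox6b2, 0.20 to 1.01 for Cox7a1, -0.37 to -0.088 for the first Cox7b row, 0.24 to 0.48 for Cox8a, -0.38 to -0.012 for Atp5f1a, 0.057 to 0.28 for Atp5mc2 and -0.63 to -0.15 for Atp5md. Genes of other lists ran from -0.41 to -0.025 for Cycs, -0.24 to -0.084 for Etfa, -0.61 to -0.16 for Ndufaf1, -0.40 to -0.16 for Tmem70, 0.23 to 0.51 for Uqcc2, 0.24 to 0.61 for Uqcc3, 0.14 to 0.40 for Surf1, -0.52 to -0.18 for Sco1, -0.44 to -0.15 for Fh, -0.57 to -0.13 for Dlat, -0.79 to -0.25 for Pdk3, -0.57 to -0.017 for Ppargc1a, -0.75 to -0.14 for Slc25a12, 0.15 to 0.45 for Mpc2, -0.89 to -0.14 for Tomm70, -0.56 to -0.11 for Dnm1l and 0.21 to 0.74 for Eci1. The cause was not tested. Without Piezo Gel+US replicate 2, 1 member had an unadjusted p below 0.05 (0.0111), and its adjusted p was not below 0.05. The complex IV median with Ndufa4 and Ndufa4l2 counted in complex I gave no value, since no member remains.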
